A study of Rattus norvegicus with 16 samples.

Results

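The comparison described here is the effect of sulfur dioxide (SO2) on gene expression in the lung of the spontaneously hypertensive (SH) rat, an inbred strain with inherited high blood pressure. It rests on 8 of the 16 arrays of the series, taken by their source labels: 4 arrays of SH rats exposed to SO2 and 4 of SH rats exposed to air. The other 8 arrays come from an outbred stock, the Sprague Dawley (SD) rat, with 4 lungs exposed to SO2 and 4 to air. All samples are total RNA of whole lung, labelled as biological replicates. No source used here gives the SO2 concentration, the length of exposure, the time of sampling, or the rats' age and sex. The series title puts forward this strain as a model for SO2-induced airway disease, so the question is which genes differ between exposed and control lungs of this strain.

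SO2 is a water-soluble irritant gas that forms sulfite on the wet surface of the airways. Irritated epithelial cells and resident macrophages release interleukin-1 and chemokines, small secreted proteins that draw neutrophils and other leukocytes out of the blood. Cells under proteotoxic or oxidative stress switch on heat shock genes, whose products refold damaged proteins, through the transcription factor HSF1, and antioxidant genes through Nrf2. Sulfite itself is removed by sulfite oxidase.

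Values below are linear signals of a probe set on each array, in replicate order. Changes are differences of mean log2(signal + 16), SO2 minus air, with the standard error (SE) of the limma fit over all 16 arrays, and n is 4 arrays in every group. A gene was called at a Benjamini-Hochberg adjusted p under 0.05, and where several probe sets stand for a gene the brightest was used. Levels of different genes are not compared with each other.

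The arrays carried strong lung signals. Surfactant protein C (Sftpc) measured 24004 to 31911 on the SO2 arrays and 24722 to 25947 on the air arrays, the club cell protein Scgb1a1 24044 to 26983 and 22863 to 24472, and the alveolar type I cell receptor Ager 11312 to 16191 and 13962 to 14614. Log2 values of array pairs correlated at 0.938 to 0.96 within SO2 (6 pairs), 0.964 to 0.972 within air (6 pairs) and 0.943 to 0.97 between the groups (16 pairs). The median SD of a probe set was 0.23 log2 units in SO2 and 0.171 in air. The first principal component of the 8 arrays, 29.6% of the variance, set SO2 replicates 2 and 3 (-27.7 and -25.6) apart from SO2 replicates 1 and 4 (4.42 and 16.2) and from the air arrays (5.35 to 11.6). The second component, 17.1% of the variance, set SO2 replicate 1 (-28.0) apart from the other 7 arrays (-3.32 to 15.7), and this array had the highest actin and Gapdh 3′ to 5′ ratios of the 8, at 3.12 and 2.10. The 10th percentile of signal averaged 22.6 ± 4.12 in SO2 and 19.6 ± 1.58 in air (SD; exact permutation p = 0.257, two-sided, where the smallest possible p is 0.0286), and it was highest on SO2 replicates 2 and 3, at 26.8 and 24.0. The actin 3′ to 5′ ratio, a sign of RNA degradation, was 2.14 ± 0.77 in SO2 and 1.78 ± 0.4 in air (exact permutation p = 0.486). Numbers in the sample titles ran from 40 to 43 for air and were 44 and 51 to 53 for SO2; no source used here says what they stand for, and they separate the groups, so whatever they mark cannot be told apart from the exposure. The array labelled SD air replicate 2 had 693.8 for the strain-dependent gene Terf2ip, close to the SH air arrays (424.8 to 733.2) and not to the other SD air arrays (1982 to 2363). It enters the SH comparison through the pooled spread and through the mean used in the filter on dim probe sets. Without it 0 probe sets were called in SH rats, 278 were higher and 269 lower at an unadjusted p under 0.05, and the heat shock, chemokine and macrophage counts given in later paragraphs were 12, 4 and 4, while counts of 0 or 1 in a few other lists moved by 1.

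No probe set passed the threshold. Of 11107 probe sets tested, 0 were called (0%), and the smallest adjusted p was 0.402. At an unadjusted p under 0.05, 272 probe sets (2.45%) were higher in SO2 and 266 (2.39%) were lower, 538 in all where chance alone would give 555. With each array centred on its median instead, the split was 167 higher and 401 lower. On 239 probe sets (2.15%) every SO2 array lay above every air array, and on 224 (2.02%) every SO2 array lay below. Together these were 463 (4.17%), where chance alone would give 2.86%. Probe sets are not independent, and this excess was not tested. Most changes were small: the lowest and highest 1% of values began at -0.62 and 0.62, 9 probe sets lay above 1 and 21 below -1. On simulated data of the same size the fit called 77 of 100 probe sets shifted by 1 log2 unit and 99 of 100 shifted by 2. The simulated noise was drawn separately for each probe set and array, so the array-wide differences described above were absent. These shares therefore do not give the power of the fit on the real arrays. Without SO2 replicate 4 there was 1 call, Tap2 (-1.67, adjusted p = 0.0418), and the counts at an unadjusted p under 0.05 were 479 higher and 409 lower. Without SO2 replicate 2 the count of higher probe sets was 180, and without both SO2 replicates 2 and 3 it was 174. Everything that follows therefore describes sizes and counts below the calling threshold. For the list counts in SH rats below, 2.51% of all 8060 genes were higher and 2.42% lower at an unadjusted p under 0.05.

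**Figure D1:**
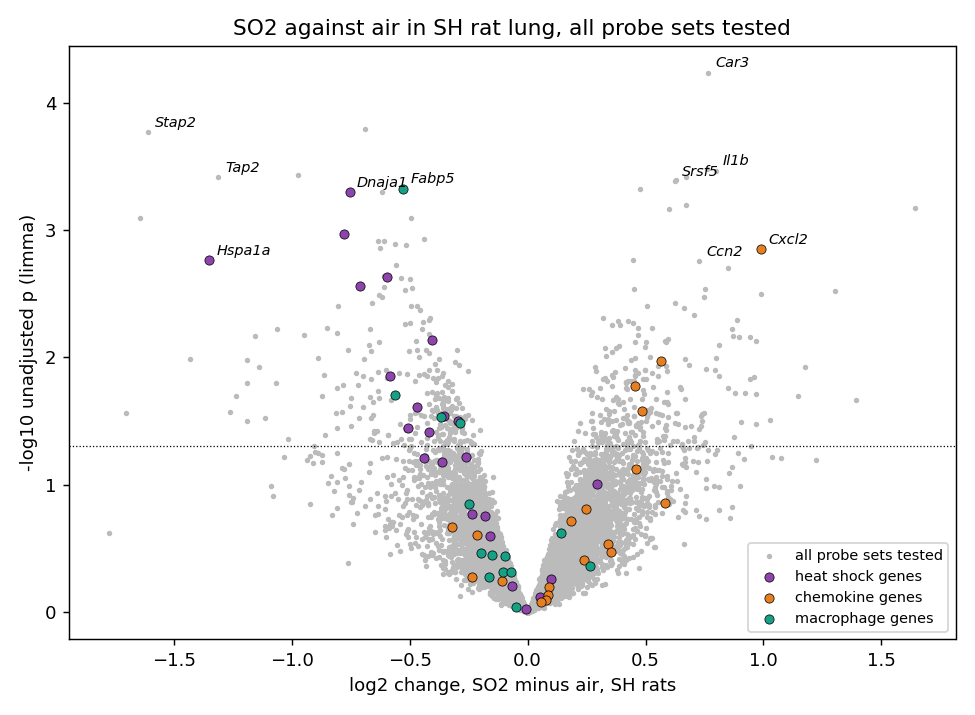
Each point is 1 of 11107 probe sets, with its log2 change (SO2 minus air, SH rats) on the x axis and the negative log10 of its unadjusted limma p on the y axis; the dotted line marks an unadjusted p of 0.05, coloured points are heat shock, chemokine and macrophage genes, and the named points are among the genes of smallest p. The smallest adjusted p of the plot is 0.402, so no point passes the threshold.

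Il1b and several chemokines had higher signals in SO2. Il1b, the gene of interleukin-1 beta, had 697.4, 772.4, 1222 and 916.1 in SO2 against 536.0, 666.9, 454.0 and 385.2 in air. The groups did not overlap, and the change was 0.80 (SE 0.184, adjusted p = 0.402). Cxcl2, the neutrophil-attracting chemokine also called macrophage inflammatory protein 2, had 150.2, 296.6, 412.9 and 177.4 in SO2 against 126.1, 131.3, 81.9 and 118.8 in air (0.99, SE 0.267, adjusted p = 0.585). Its highest values were on SO2 replicates 2 and 3, and again the groups did not overlap.

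Of 28 listed chemokines and chemokine receptors, 23 were on the array and 19 passed the filter on dim probe sets. At an unadjusted p under 0.05, 4 of these 19 were higher (Cxcl2, Ccl3, Ccl4 and Ccl11) and 0 lower, beside 202 higher (2.51%) and 195 lower (2.42%) of all 8060 genes. Their median change was 0.24, beside 0.013 over all genes, and 15 of the 19 lay above 0, where 53.1% of all genes did. Other lists were as one-sided, with 25 of 28 ribosomal protein genes and 15 of 18 cardiac muscle genes above 0. Ccl11, or eotaxin, which attracts eosinophils, had 525.1, 517.3, 674.3 and 454.7 in SO2 against 392.5, 433.3, 397.5 and 305.3 in air, with no overlap (0.49, SE 0.202); every SO2 array lay above every air array in 2.2% of all genes. For Ccl3, which draws monocytes and neutrophils, SO2 arrays read 448.2, 748.5, 593.9 and 560.2 and air arrays 396.5, 498.0, 368.8 and 414.2 (0.46, SE 0.175), and replicate 1 of SO2 lay inside the air range. Ccl4, closely related to Ccl3, ran from 275.2 to 517.0 in SO2 and from 207.0 to 286.4 in air (0.56, SE 0.2). The dendritic and T cell attractant Ccl20 was at 0.46, the receptor Cx3cr1 at 0.58 and the neutrophil attractant Cxcl1 at 0.24, all with overlapping groups. Cxcl3 (-0.21) and Cx3cl1 (-0.32) were on the other side of 0. Without SO2 replicate 3 the count was 2 of 19, and without both SO2 replicates 2 and 3 it was 1 of 19.

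The rest of the interleukin-1 family did not follow Il1b. Among 11 measured members 1 was higher and 1 lower at an unadjusted p under 0.05, with a median of -0.052. Of 13 measured genes of other cytokines and NF-kB feedback, 0 were higher and 1 was lower (Stat3, described with the acute phase genes), 10 lay below 0, and the median was -0.043. The lower one of the interleukin-1 family was Il18, a related cytokine that is released by the same caspase and that drives interferon gamma, at 407.1, 665.2, 554.3 and 617.8 in SO2 against 756.6, 670.3, 775.3 and 790.3 in air (-0.42, SE 0.157). The groups did not overlap, though SO2 replicate 2 and air replicate 2 were close, and the change was -0.28 without SO2 replicate 1. The interferon-induced genes were mostly above 0, 15 of 18 with a median of 0.18, where 53.1% of all genes were above 0. At an unadjusted p under 0.05, beside 2.51% of all genes, 1 was higher, the antiviral GTPase Mx1 (565.0, 811.6, 853.6 and 726.1 in SO2, 433.4, 511.6, 729.6 and 462.2 in air). That count was 4 without air replicate 3, 3 without SO2 replicate 1, and 0 without SO2 replicate 2 or 3 or air replicate 1, 2 or 4. In SD rats the same list had a median of 0.24.

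The neutrophil markers that passed the filter were not higher beside these mediators. Of 7 measured, 0 were higher and 1 lower at an unadjusted p under 0.05, and 0 were lower without air replicate 2. Their summed signal was 5729 to 9720 in SO2 and 9115 to 15015 in air, with Lcn2 the largest term on every array; the sum of the other 6 was 3335 to 3997 in SO2 and 2693 to 3942 in air. The calgranulin S100a8 ranged from 290.9 to 508.7 in SO2 and from 204.4 to 515.3 in air, and S100a9 from 1231 to 1853 in SO2 and from 888.4 to 1793 in air. The lower gene was Lcn2, or lipocalin 2, an iron-sequestering protein of neutrophils and stressed epithelium, with 2394, 6274, 2990 and 4427 in SO2 against 5735, 11156, 5729 and 6422 in air (-0.89, SE 0.312). Only SO2 replicate 2 reached the air range.

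**Figure D2:**
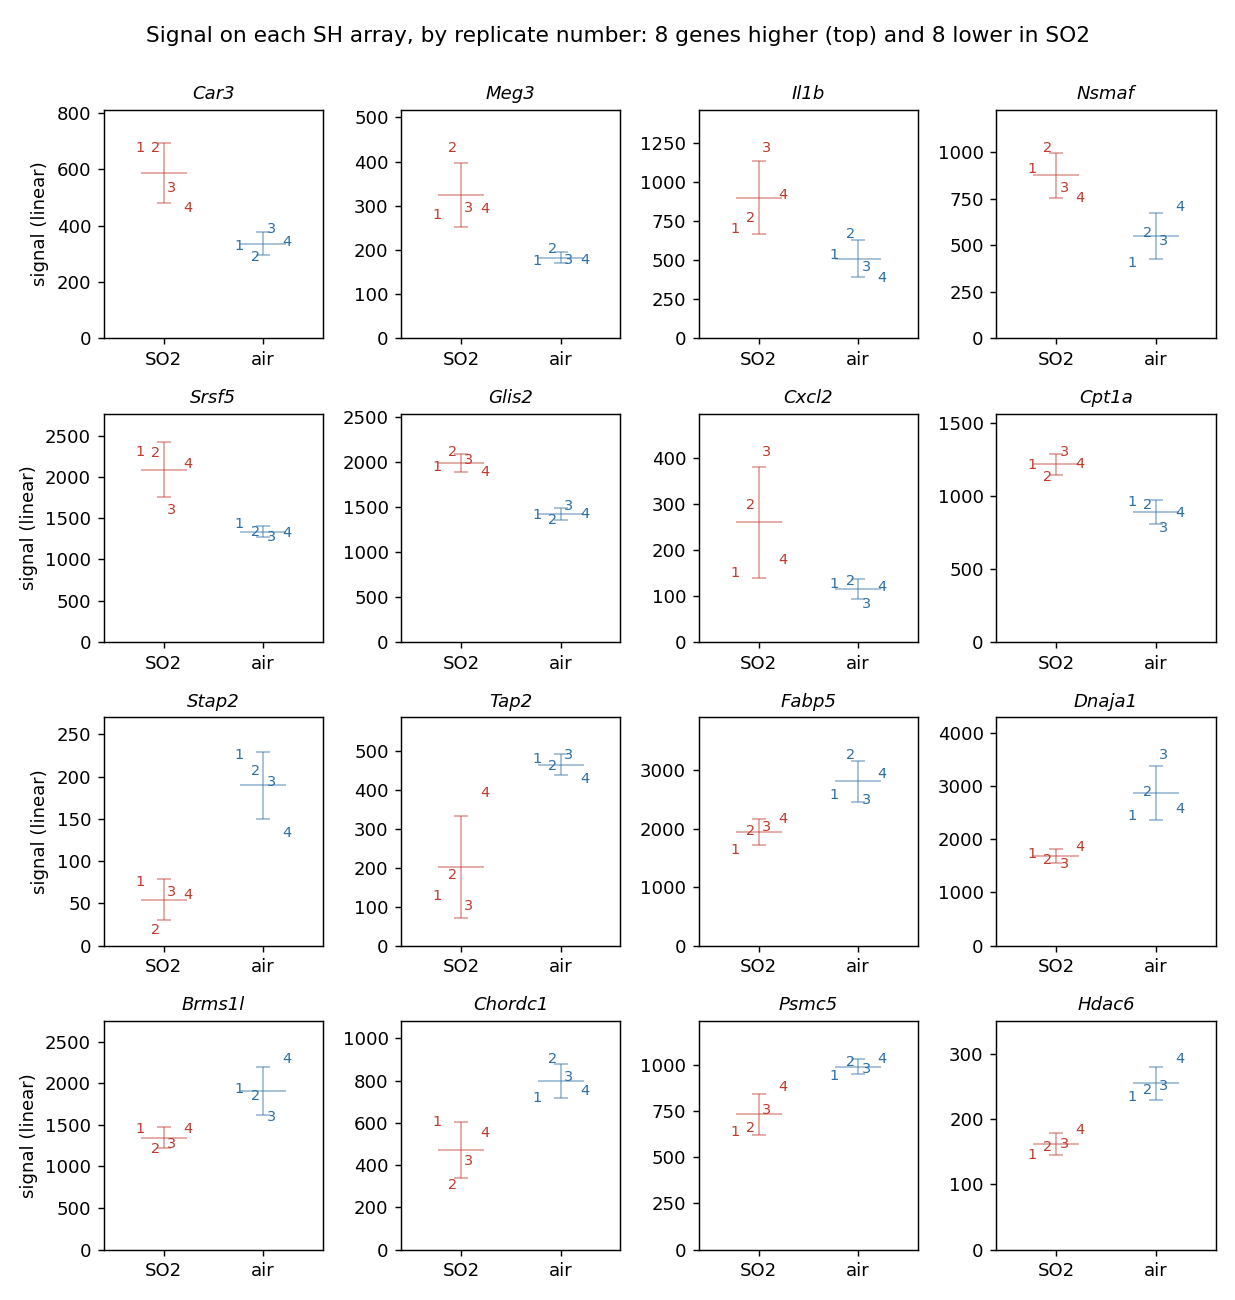
Linear signal (y axis) on each SH array for the 8 genes of smallest p higher (upper rows) and the 8 lower in SO2 (lower rows), SO2 left and air right in each panel; each numeral is 1 array by its replicate number, the horizontal line is the group mean and the error bar 1 SD (n = 4). For Il1b the SO2 arrays sit between 697.4 and 1222 and the air arrays between 385.2 and 666.9, and for Tap2 SO2 replicate 4, at 390.8, stands apart from the other SO2 arrays.

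Heat shock genes had lower signals in SO2. Of 30 listed chaperones, co-chaperones and heat shock factors, 26 were on the array and 23 passed the filter; 12 of the 23 were lower and 0 higher at an unadjusted p under 0.05, beside 2.42% and 2.51% of all genes. Their median change was -0.36, 20 of 23 lay below 0, where 46.9% of all genes did, and in SD rats the median was -0.091. In 4 of them, Dnaja1, Dnajb1, Chordc1 and Ahsa1, every SO2 array was below every air array, where 2.1% of all genes were. The summed signal of the 23 was 34961 to 43805 in SO2 and 42475 to 64338 in air, highest on air replicate 3.

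HSF1 binds to alternating GAA and TTC units. The RefSeq promoter windows (build GRCr8, 250 bases before to 50 after the start of each gene) were searched for 3 such units in a row, GAANNTTCNNGAA, and on the other strand TTCNNGAANNTTC, which is its reverse complement. It was found in 267 of 33469 promoters (0.798%), in 5 of the 19 promoters matched to measured heat shock genes (26.3%) and in 3 of the 11 matched to the genes that were lower (27.3%). The 5 are Hspd1 and Hspe1, which share 1 site between their divergent starts, Hsph1, Dnaja1 and Chordc1. The windows of the 3 lower genes are printed because their signals are described next; the motif is in capitals, on the gene's strand, at chr12:10427324-10427353 (plus strand, motif from 36 bases before the start) for Hsph1, chr5:60638405-60638434 (plus strand, from base 10) for Dnaja1 and chr8:23650823-23650852 (plus strand, from base 11) for Chordc1.
Hsph1: gccgcagaTTCTGGAAAGTTCtcctcagta
Dnaja1: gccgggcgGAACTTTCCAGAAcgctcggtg
Chordc1: tgcaaccgGAACGTTCGGGAAgattcctga
A match describes these letters and was not tested as a binding site.

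Among the Hsp70 system, Hspa1a, the inducible Hsp70, had 897.8, 1155, 715.2 and 1603 in SO2 against 1292, 2605, 6498 and 2367 in air. Air replicate 1 lay inside the SO2 range, and the change was -1.35 (SE 0.371, adjusted p = 0.653). Hsph1, its nucleotide exchange factor, had 1499, 1451, 1114 and 2139 in SO2 against 1770, 2142, 3114 and 2254 in air (-0.58, SE 0.217). SO2 replicate 4 overlapped the air arrays there. Of the J-domain co-chaperones, which hand substrates to Hsp70, Dnaja1 and Dnajb1 were lower on every SO2 array. Dnaja1 had 1727, 1609, 1538 and 1850 in SO2 against 2443, 2891, 3570 and 2571 in air (-0.75, SE 0.181, adjusted p = 0.402), and a second Dnaja1 probe set was at -0.62. Dnajb1 had 675.0, 850.5, 694.1 and 748.9 in SO2 against 991.3, 1196, 1449 and 933.9 in air (-0.60, SE 0.17), and its second probe set was at -0.97. Dnajb4 was at -0.40 with a small overlap, while Dnaja2 (-0.066) and the endoplasmic reticulum member Dnajb9 (0.053) were near 0. Bag3, which releases Hsp70 substrates, was at -0.30.

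In the Hsp90 system, the cytosolic Hsp90ab1 had 8427, 9489, 7748 and 10690 in SO2 against 10642, 10970, 13359 and 11372 in air (-0.35, SE 0.15), overlapping only at SO2 replicate 4. Chordc1, an Hsp90 co-chaperone, had 603.9, 307.4, 421.6 and 550.6 in SO2 against 716.4, 900.6, 818.5 and 752.5 in air (-0.78, SE 0.203, adjusted p = 0.585). Ahsa1, the activator of the Hsp90 ATPase, had 1180, 786.8, 844.8 and 1415 in SO2 against 1467, 1572, 2096 and 1676 in air (-0.71, SE 0.206). Both were lower on every SO2 array. Stip1, which links Hsp70 to Hsp90, was at -0.42, and the immunophilin Fkbp4 at -0.23. The small heat shock proteins were mixed: Hspb1 was at -0.51, with air replicate 3 at 8885 against 3723 to 4831 on the other air arrays, Hspb8 at -0.36, Cryab at -0.0083 and Hspb6 at 0.30. The mitochondrial chaperonins Hspd1 and Hspe1, which share the motif above, were at -0.26 and -0.18 with overlapping groups. The factor Hsf2 was lower (-0.47) and Hsf1 was at 0.099.

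The heat shock count depended on single arrays. It was 7 of 23 without air replicate 3, 6 of 23 without SO2 replicate 3, and 5 of 23 without SO2 replicates 2 and 3 together. It was 6 of 23 in a fit with 2 quality covariates, the actin ratio and the array's 10th percentile. The median over 23 alternatives stayed between -0.44 and -0.24.

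**Figure D3:**
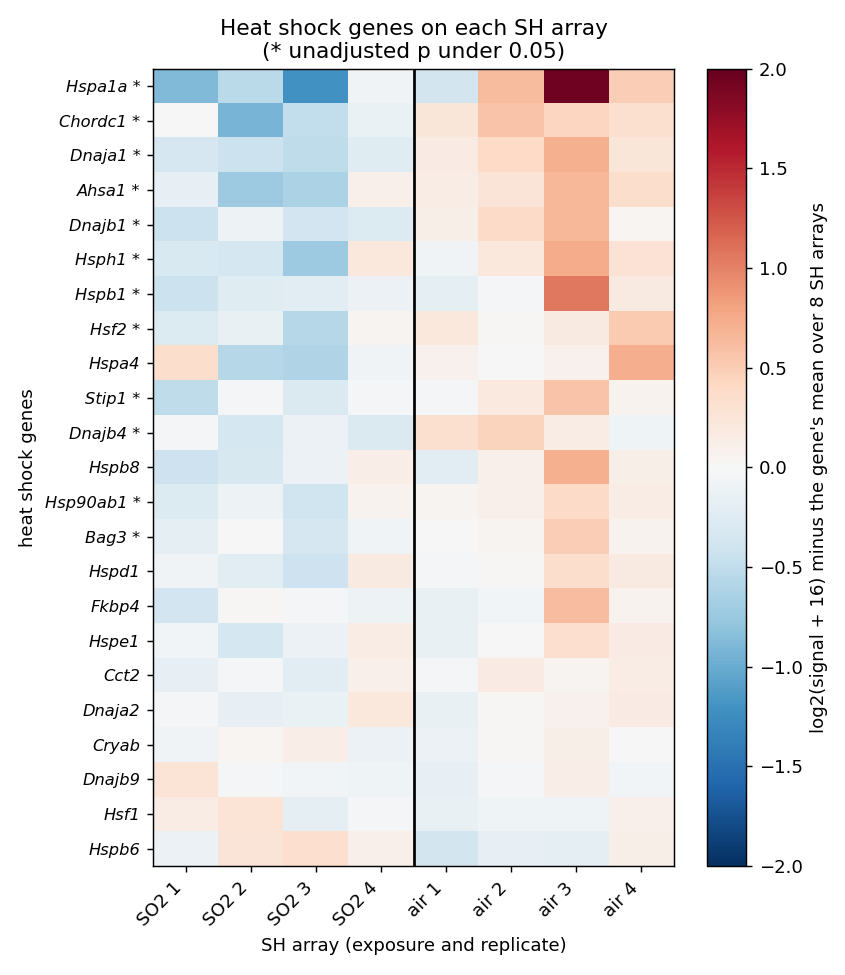
Heat map of the 23 measured heat shock genes (rows) on the 8 SH arrays (columns, SO2 left, air right); colour is log2(signal + 16) minus the gene's mean over the 8 arrays, and an asterisk marks an unadjusted p under 0.05. Air replicate 3 is the highest array for Hspa1a (6498), Hspb1 (8885) and Dnaja1 (3570), and the upper rows are lower across the SO2 columns.

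Other genes of protein quality control differed less. Of 22 measured genes of the unfolded protein response of the endoplasmic reticulum, 2 were higher (Trib3, 0.50, and Chac1, 0.43) and 1 lower (Pdia3, -0.28), with a median of -0.029. Trib3, a pseudokinase induced by the integrated stress response, had 268.8, 303.4, 260.3 and 210.8 in SO2 against 133.1, 215.6, 193.2 and 178.9 in air, where only SO2 replicate 4 fell inside the air range. Of 27 proteasome subunits, 2 were lower and 0 higher, beside 2.42% and 2.51% of all genes. Below 0 lay 19, where 46.9% of all genes did. Psmc5, an ATPase of the regulatory particle, had 634.5, 657.8, 757.3 and 878.3 in SO2 against 938.1, 1014, 975.5 and 1029 in air, with no overlap (-0.44, SE 0.115, adjusted p = 0.585). Hdac6, the cytoplasmic deacetylase that carries misfolded protein to aggresomes, was lower on every SO2 array, at 145.0 to 183.8 against 234.0 to 291.9 in air (-0.61, SE 0.16).

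Several macrophage markers were lower in SO2. Of 14 measured, 4 were lower and 0 higher at an unadjusted p under 0.05, beside 2.42% and 2.51% of all genes. In these 4 every SO2 array was below every air array, as in 2.1% of all genes, and the median of the list was -0.16 (0.016 in SD rats). Fabp5, a fatty acid binding protein of macrophages and epithelium, had 1629, 1971, 2025 and 2162 in SO2 against 2574, 3254, 2485 and 2932 in air (-0.53, SE 0.125, adjusted p = 0.402). Gpnmb, a lysosomal glycoprotein of lipid-laden macrophages, had 3956, 3860, 3120 and 4652 in SO2 against 4745, 6608, 5915 and 5724 in air (-0.56, SE 0.222). These are the smallest p and the most negative change of the list. The lysosomal protein Cd68 ranged from 927.3 to 1278 in SO2 and from 1294 to 1644 in air (-0.37, SE 0.156), and the protease Ctsd from 7451 to 8750 in SO2 and from 9525 to 11340 in air (-0.29, SE 0.124). Other defining markers were nearer 0: the receptor Csf1r was at -0.10, the invariant chain Cd74 at -0.093, Lyz2 at 0.14, and the complement components C1qa, C1qb and C1qc at -0.25, -0.16 and -0.20. The summed signal of the 14 was 70341 to 77034 in SO2 and 75207 to 79399 in air. In whole lung, fewer macrophages, less RNA per macrophage and a change in other cells that make these RNAs cannot be told apart. The count was 2 of 14 without SO2 replicate 1, SO2 replicate 3, air replicate 2 or air replicate 4, each left out alone, and 1 of 14 with the 2 quality measures as covariates.

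Among genes of the interleukin-6 and acute phase response, the lowest change was that of Stap2. Of 13 measured, 4 were lower (Stap2, Stat3, Fgg and Lcn2) and 1 higher (Timp1), with a median of -0.083. Of all genes 2.42% were lower and 2.51% higher. The lower count was 3 without air replicate 2 and 6 without SO2 replicate 4. The higher count was 0 without SO2 replicate 2 or 4 or air replicate 1, 2 or 4. Lcn2 and Stat3 are also the lower genes of the neutrophil and cytokine lists. Stap2, an adaptor that binds STAT3, had 75.1, 19.0, 63.4 and 60.2 in SO2 against 225.0, 206.5, 193.5 and 133.3 in air (-1.61, SE 0.347, adjusted p = 0.402). All 4 SO2 values are dim, and that of replicate 2 is under the 10th percentile of its array (26.8), so the size of the difference is uncertain. Stat3, the transcription factor through which interleukin-6 acts, had 1531, 862.6, 895.0 and 1701 in SO2 against 1777, 1878, 1838 and 1812 in air (-0.61, SE 0.178, adjusted p = 0.78). The 4 air values lie close together, and the low SO2 values are replicates 2 and 3. A second Stat3 probe set was at -0.32. Fgg, the fibrinogen gamma chain, had 886.1, 1836, 1366 and 1379 in SO2 against 1791, 2621, 1997 and 2761 in air (-0.76, SE 0.262), overlapping at SO2 replicate 2. Timp1, an inhibitor of matrix proteases, was at 0.36, or 0.20 without SO2 replicate 4.

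The peptide transporter of antigen presentation was lower in both subunits. Tap2 had 128.2, 182.1, 103.0 and 390.8 in SO2 against 479.7, 459.9, 487.7 and 427.1 in air (-1.31, SE 0.306, adjusted p = 0.402). SO2 replicate 4 stood near the air arrays and the other SO2 arrays far below them. Tap1 had 269.8, 198.2, 282.8 and 397.0 in SO2 against 315.4, 369.7, 428.2 and 364.3 in air (-0.38, SE 0.175), with replicate 4 again the highest SO2 array, and the change was -0.23 without SO2 replicate 2. The rest of the antigen processing list did not share this size: 3 of 21 were lower and 0 higher (1 of 21 lower without any 1 of SO2 replicates 1, 2 and 3 and air replicates 2, 3 and 4), the median was -0.05, beta 2-microglobulin (B2m) was at -0.016, and the immunoproteasome subunits Psmb8 and Psmb9 were at -0.095 and 0.034. Of all genes 2.42% were lower and 2.51% higher.

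Of 17 measured genes of alveolar type II cells, 0 were higher and 2 lower at an unadjusted p under 0.05, beside 2.51% and 2.42% of all genes. Of the 17, 12 lay below 0, where 46.9% of all genes did, and the median was -0.14 (-0.017 in SD rats). The count of lower genes was 1 without SO2 replicate 2 or 3 or air replicate 4. Sftpc was the highest value of the list, at 0.19 with overlapping groups. Pla2g1b, a secreted phospholipase, had 1616, 2130, 2193 and 2055 in SO2 against 2747, 2532, 3013 and 3156 in air, with no overlap (-0.52, SE 0.166, adjusted p = 0.89). Acsl4, a fatty acyl-CoA ligase, was at -0.35. Lpcat1, which makes the dipalmitoyl phosphatidylcholine of surfactant, was below air on every SO2 array, at 2796 to 3343 against 3597 to 4609 (-0.38, SE 0.205), without passing even the unadjusted threshold. The phosphatase Alpl, which marks type II cells and neutrophils, had 1252, 1337, 1174 and 1326 in SO2 against 1975, 1808, 1747 and 2020 in air (-0.56, SE 0.15, adjusted p = 0.585), and both groups were narrow. Among 12 type I cell genes the chloride channel protein Clic5 was higher (1.03, SE 0.442), but its values of 1465, 4866, 4801 and 1100 in SO2, against 1042 to 1348 in air, leave SO2 replicates 2 and 3 as the arrays far above air. Ager (-0.077) and Pdpn (0.14) were near 0, and the water channel Aqp5 was lower on every SO2 array, at 3234 to 3729 against 3801 to 4283 (-0.23, SE 0.16).

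Airway cells differed in a few genes. Cyp4b1, a fatty acid hydroxylase of club cells, had 3902, 2584, 3376 and 3544 in SO2 against 5231, 5060, 4238 and 4806 in air, with no overlap (-0.54, SE 0.154, adjusted p = 0.753). It was the single gene past the unadjusted threshold among 10 club cell genes, whose median was 0.0042, and Scgb1a1 was at 0.12. Of 15 mucin and EGF receptor genes, 1 was higher, the ligand Tgfa at 128.2, 215.6, 137.6 and 85.2 in SO2 against 92.5, 84.3, 74.7 and 86.9 in air (0.59, or 0.38 without SO2 replicate 2). The receptor Egfr was at -0.016, and its sign changed with single arrays left out. Muc5ac, the gel-forming mucin of goblet cells, was left out as dim, at 19.6 to 91.6 in SO2 and 40.4 to 70.6 in air. Basal cell integrin Itga6 was at 0.59 with overlap, and its second probe set at -0.00074; 0 of 6 ciliated cell genes and 0 of 20 junction and ion transport genes passed the unadjusted threshold.

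Antioxidant genes had no member past the unadjusted threshold. Of 20 genes controlled by Nrf2, 0 were higher and 0 lower at an unadjusted p under 0.05, with a median of 0.0078, and of 21 superoxide, peroxide and glutathione enzymes likewise 0 and 0, with a median of -0.019. Haem oxygenase Hmox1 had 1134, 1167, 644.7 and 1266 in SO2 against 1149, 1631, 1503 and 1658 in air (-0.52, SE 0.338), and the quinone reductase Nqo1 averaged 1357 ± 131 in SO2 and 1208 ± 168 in air (SD; 0.17, SE 0.145). Manganese superoxide dismutase Sod2 was at -0.066 and the glutamate-cysteine ligase subunit Gclc at -0.22. The metal-binding metallothionein Mt2A was higher, with 947.5, 1039, 1139 and 1524 in SO2 against 685.6, 1064, 696.3 and 572.6 in air (0.63, SE 0.19, adjusted p = 0.826), overlapping at air replicate 2.

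In sulfur metabolism, 2 of 20 genes were higher and 0 lower, beside 2.51% and 2.42% of all genes, with a median of -0.0029. Cdo1, cysteine dioxygenase, which takes cysteine towards sulfite and taurine, had 2727, 2920, 2913 and 3176 in SO2 against 2203, 1777, 1973 and 1497 in air, with no overlap (0.66, SE 0.204, adjusted p = 0.841). Mat1a, which makes S-adenosylmethionine, was also non-overlapping, at 243.9, 208.1, 170.5 and 204.3 in SO2 against 169.3, 63.9, 140.7 and 154.3 in air (0.65, or 0.38 without air replicate 2). Suox, sulfite oxidase, was lower on every SO2 array, with 373.3, 359.8, 351.4 and 366.2 in SO2 against 427.1, 414.6, 384.9 and 430.6 in air. The difference was small (-0.18, adjusted p = 0.96), and its SE of 0.175 rests on all 16 arrays.

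Ccn2 and Ccn1, secreted matrix proteins of the CCN family, had higher signals. Ccn2, connective tissue growth factor, had 9896, 7489, 8060 and 8419 in SO2 against 4949, 4709, 4864 and 5872 in air, a wide gap (0.73, SE 0.201, adjusted p = 0.653). Ccn1, its relative, had 498.2, 330.4, 691.4 and 277.1 in SO2 against 230.4, 175.8, 299.6 and 301.6 in air (0.74, SE 0.311), with SO2 replicate 4 inside the air range. Among 24 immediate early and CCN genes 3 were higher (also Gadd45b, 0.49) and 1 lower (Ier2, -0.70), with a median of 0.044. Of all genes 2.51% were higher and 2.42% lower. In the matrix list 28 of 35 genes lay above 0 with a median of 0.08, and 1 was higher at an unadjusted p under 0.05: Lamb1, the laminin beta 1 chain, with 598.4, 776.8, 564.3 and 479.4 in SO2 against 425.6, 410.1, 390.3 and 445.8 in air (0.50, SE 0.181). That count was 5 of 35 without air replicate 3, 3 without SO2 replicate 1 and 2 without SO2 replicate 4. Elastin (Eln) was at 0.45 with overlap. Serpinh1, the collagen chaperone, was lower (-0.34) and the inhibitor Timp3 higher (0.34).

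Metabolic genes held the smallest p of the comparison. Car3, a carbonic anhydrase of fat and muscle, had 677.5, 675.7, 533.3 and 462.6 in SO2 against 326.4, 289.2, 387.6 and 341.3 in air (0.77, SE 0.15, adjusted p = 0.402), and its dimmer second probe set was at 0.39. Car3 stood in the adipocyte list, of which 1 of 15 was higher and 1 lower; the median was 0.11 and the fat cell marker Plin1 was left out as dim (15.6 to 144.9 in SO2, 61.4 to 113.1 in air). Cpt1a, which admits long-chain fatty acids to mitochondria, had 1214, 1134, 1307 and 1224 in SO2 against 962.5, 942.9, 781.7 and 886.0 in air, without overlap (0.45, SE 0.123, adjusted p = 0.653), although a second probe set was at 0.13. The fatty acid translocase Cd36 had 208.8, 234.4, 300.5 and 305.1 in SO2 against 915.0, 465.9, 342.0 and 383.9 in air (-0.87, SE 0.345), and the change was -0.58 without air replicate 1. In SD rats Cd36 averaged 1574 ± 612 in SO2 and 1493 ± 775 in air (SD of 4 arrays), so both SH groups had low signals beside that stock. The lipid epoxide hydrolase Ephx2 was at -0.026.

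Among 11 measured haem, red cell and platelet genes 3 were lower and 0 higher at an unadjusted p under 0.05, beside 2.42% and 2.51% of all genes, while 6 lay above 0 and the median was 0.012. Alas2, the erythroid enzyme that begins haem synthesis, had 438.2, 528.2, 312.7 and 430.8 in SO2 against 770.4, 659.4, 787.4 and 478.2 in air (-0.63, SE 0.168, adjusted p = 0.585). The beta globin Hbb followed with 7902, 7004, 9292 and 6337 in SO2 against 10551, 10844, 11316 and 8277 in air (-0.43, SE 0.147), and both genes were lowest in air on replicate 4. Alas1, the housekeeping isoenzyme, was at -0.35. Urod, a later enzyme of haem synthesis, was higher on every SO2 array, at 919.8 to 958.8 against 810.6 to 877.7 in air (0.15, SE 0.109). The share of blood in the samples was not measured in another way, and its part in other results was not tested.

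The other genes of smallest p belong to no single pathway. Meg3, an imprinted long noncoding RNA, had 278.2, 431.5, 294.0 and 293.3 in SO2 against 174.4, 200.9, 176.3 and 177.4 in air (0.76, SE 0.175, adjusted p = 0.402). Nsmaf, an adaptor of the tumour necrosis factor receptor, had 912.2, 1026, 810.8 and 755.2 in SO2 against 406.5, 565.9, 522.4 and 706.9 in air (0.67, SE 0.157). The splicing factor Srsf5 had 2306, 2286, 1601 and 2160 in SO2 against 1425, 1330, 1266 and 1324 in air (0.62, SE 0.147). None of these 3 overlapped. The zinc finger factor Glis2 was narrow in both groups, at 1890 to 2117 in SO2 and 1357 to 1512 in air (0.48, SE 0.114). Abcf1, which acts in translation initiation, was at 0.45, and Sgsm2, a Rab GTPase regulator, at 0.99. Shisa9, a glutamate receptor partner in the brain, was at 0.75 and the mitochondrial methyltransferase Antkmt at 0.50. On the lower side, Brms1l, part of the Sin3 deacetylase complex, was at -0.49, Lhfpl2 at -0.51, the focal adhesion protein Tes at -0.61 and the actin capping protein Capg at -0.63 (-0.41 without SO2 replicate 1), all with every SO2 array below every air array. The adjusted p of the 30 genes of smallest p, 15 in each direction, ran from 0.402 to 0.841.

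The remaining lists had few members past the unadjusted threshold. Counts this small turned on single arrays: with each SH array left out in turn, immediate early and CCN genes had 1 to 4 higher, unfolded protein response genes 0 to 2 higher and 0 to 3 lower, club cell genes 1 to 3 lower and sulfur genes 1 to 2 higher and 0 to 2 lower. In 13 of the 42 lists there were 0 in either direction, among them T and natural killer cells (15 measured), endothelium (22), smooth muscle (18), cardiac muscle (18), cell cycle (25), clock genes (15), vasoactive genes (17) and ribosomal proteins (28). Cardiac muscle genes summed to 7219 to 8962 in SO2 and 6605 to 8547 in air. Clock genes, which follow the hour of sampling, had a median of 0.08 in SH rats and 0.36 in SD rats, where 8 of 15 were higher and 1 lower at an unadjusted p under 0.05, beside 4.02% and 3.93% of all genes in SD rats.

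**Figure D4:**
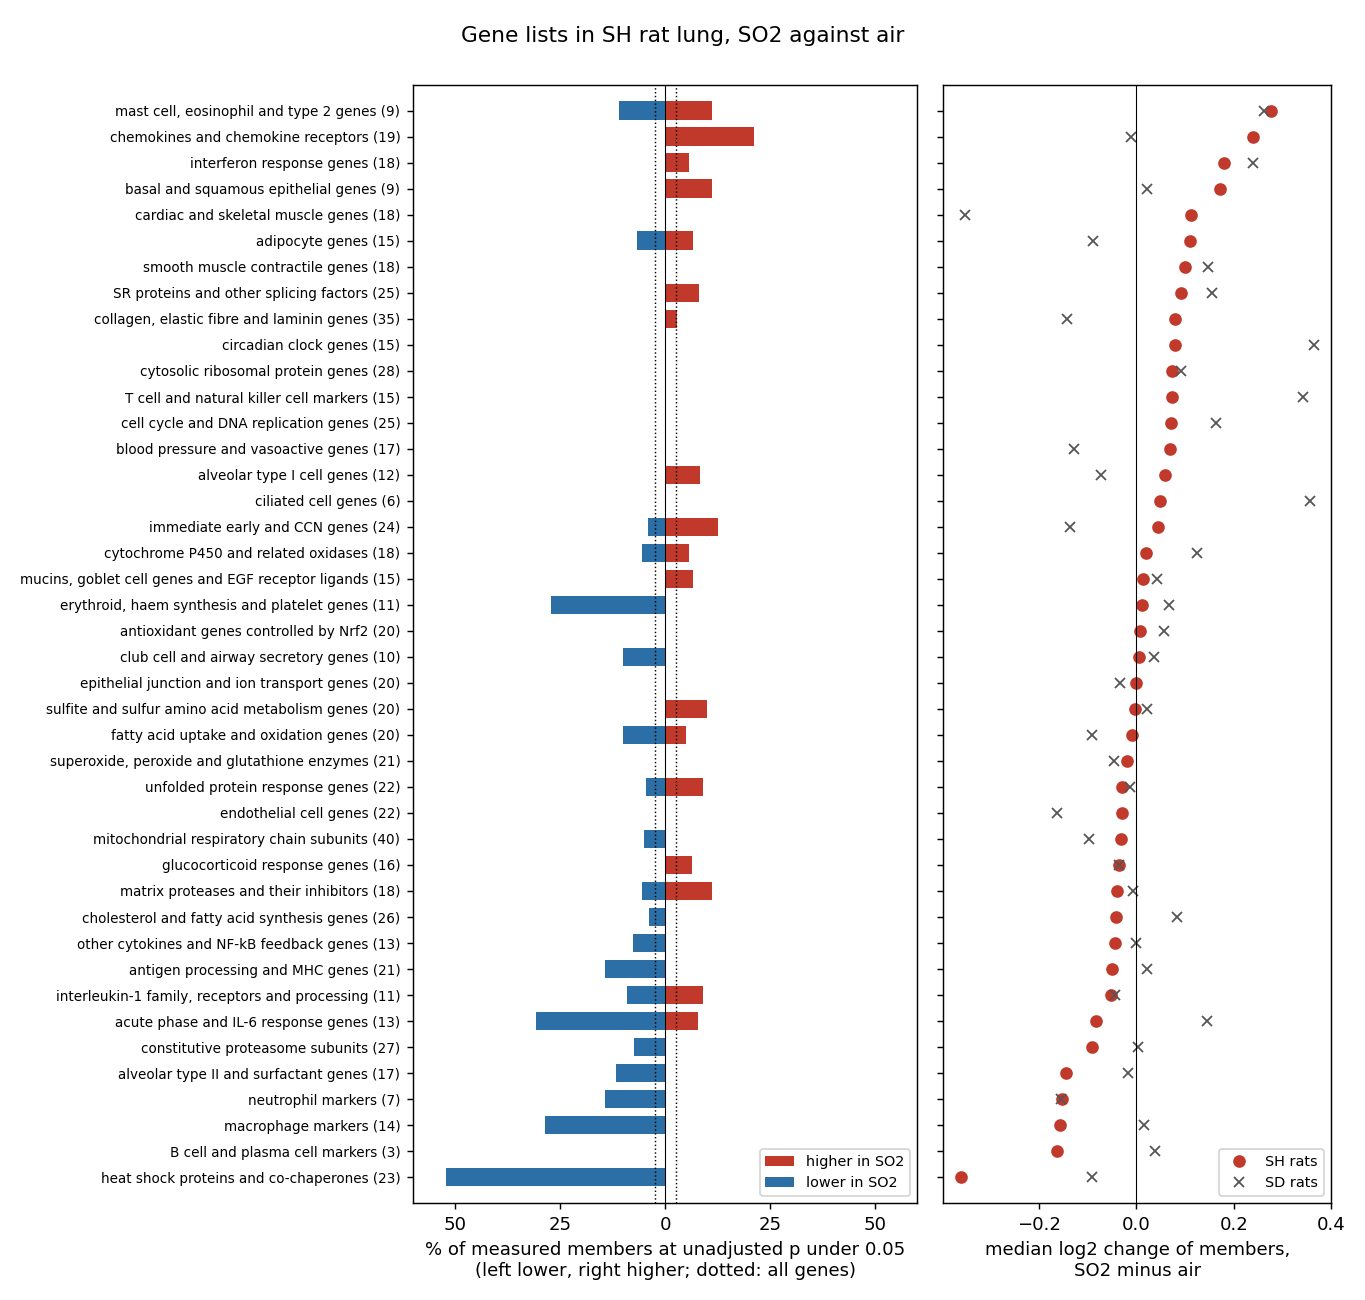
Left, the percentage of measured members of each of the 42 gene lists (rows, number measured in brackets) at an unadjusted p under 0.05, higher in SO2 to the right and lower to the left, with dotted lines at the share of all genes (2.51% and 2.42%). The list of splicing factors also holds the noncoding RNA Meg3, which is 1 of its 2 higher members of 25 measured. Right, the median log2 change of each list in SH rats (circles) and SD rats (crosses); heat shock genes are at -0.36 and -0.091, chemokines at 0.24 and -0.011.

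The SD arrays share no sample with the SH arrays and give a second comparison of SO2 with air. It too called 0 of 11107 probe sets (0%), with a smallest adjusted p of 0.192, and 490 (4.41%) were higher and 425 (3.83%) lower at an unadjusted p under 0.05. Over 8060 genes the changes of the 2 strains correlated at 0.114, given as a description, since genes are not independent. Of the 15 genes of smallest p higher in SH rats, 10 had the same sign in SD rats, where 56.0% of all genes above 0 in SH rats did. Of the 15 lower, 8 had the same sign, beside 53.1% of all genes. Their median changes were 0.67 in SH and 0.062 in SD rats for the higher genes, and -0.61 and -0.13 for the lower. Without SD air replicate 2 the same-sign counts were 10 and 9. At an unadjusted p under 0.05 in SD rats as well were Srsf5 (0.62 in SH, 0.64 in SD) and Ccn2 (0.73, 0.44) on the higher side. Dnajb1 (-0.60, -0.59), Hspa1a (-1.35, -0.86), Alpl (-0.56, -0.41) and Lhfpl2 (-0.51, -0.42) were those on the lower side. The inflammatory and metabolic leaders were not, with Il1b at -0.24, Cxcl2 at -0.06, Car3 at -0.30 and Tap2 at 0.13 in SD rats. Testing the SH change minus the SD change called 0 of 11107 probe sets (smallest adjusted p = 0.447; 2.18% higher and 2.48% lower at an unadjusted p under 0.05), so none of these is shown to be particular to SH rats. Among the 30 genes, chosen by their SH values, that difference was at an unadjusted p under 0.05 in 8 of the 15 higher and 8 of the 15 lower ones. The SH change is part of the difference, so this choice raises the counts, and they are no test of a strain difference.

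**Figure D5:**
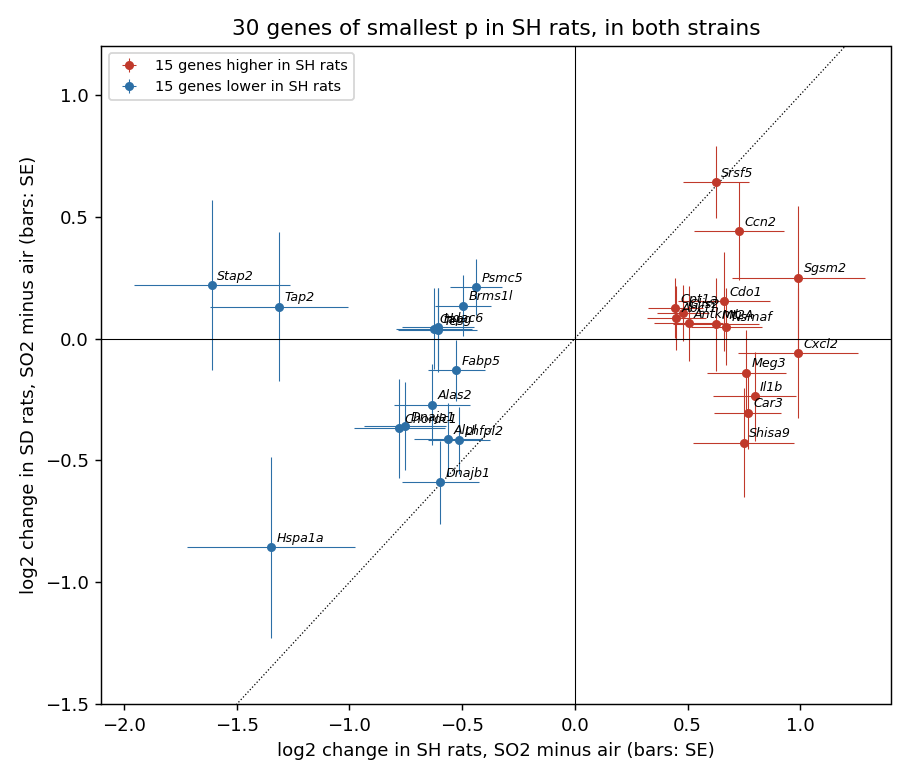
Log2 change with SO2 in SH rats (x axis) and SD rats (y axis) for the 30 genes of smallest p in SH rats, with bars of 1 SE. Srsf5 and Dnajb1 lie near the diagonal, at 0.62 and 0.64 and at -0.60 and -0.59, while Il1b, Car3 and Tap2 lie near or across the line of no change in SD rats.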

How the data were processed

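Lung RNA was measured on 16 arrays whose control probe sets carry Affymetrix names. The deposited table gives 1 linear intensity per probe set and array; the submitters' processing notes name GCOS, and no source used here gives its version or settings. Trimmed means lay between 500.099 and 500.111, so the authors' scaling was kept. From 15923 probe sets 57 controls were dropped. The platform annotation names 1 gene for 12783 of the remaining 15866, several for 312 and none here for 2771, and 12748 symbols matched RefSeq (GRCr8). The 30% of lowest mean over 16 arrays were left out, leaving 11107 probe sets and 8060 genes. Values were log2(intensity + 16). Fits were made with lmFit and eBayes (trend on) of limma 3.58.1 under R 4.3.3, with 4 group means, 12 residual degrees of freedom, no covariate, and Benjamini-Hochberg adjustment over all 11107; array measures were compared by exact permutation (scipy 1.17.1). The fit was tested on simulated data. Arrays have no depth; their number limits the precision, and detection calls were not used here.

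Replicates are labelled biological but no source ties them to separate animals by name, so p-values measure the spread between these samples. Genes were named by rule: the 15 of smallest p in each direction and up to 4 of smallest p per list. Il1b, Hspa1a, Suox, Cd36, Ephx2, Egfr and Muc5ac were to be named whatever their values. Further list members are given for contrast and were chosen after their values were seen. Members, lists and rules were chosen with earlier results of these data known. Alternatives were offsets of 1 and 64, quantile or median scaling, other dim filters, SH arrays only, other eBayes settings, array weights, a replicate block, quality covariates, averaged probe sets, and single arrays left out; leaving out SD arrays and SO2 replicates 2 and 3 together was added after seeing the data.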

Additional observations from a re-analysis of the deposited data

Results flagged for a closer look

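Of 142 groups of 4 arrays checked for 71 genes, 3 held a sample far from the other 3 by Dixon's test, where chance gives about 1 in 20. Meg3 read 431.5 on SO2 replicate 2, against 278.2 to 294.0 on the other SO2 arrays, and 200.9 on air replicate 2, against 174.4 to 177.4. Ier2, an immediate early gene, read 1278.8 on air replicate 3, against 898.4 to 937.3 on the other air arrays.

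In 3 of these 71 genes every SO2 array moved one way from the air arrays in SH rats and the opposite way in SD rats. Most of the 71 were named for a small p in SH rats, and the share over all genes is not given here. Shisa9 was at 0.75 in SH and -0.43 in SD rats (difference 1.18), Psmc5 at -0.44 and 0.21 (difference -0.65) and Stat3 at -0.61 and 0.40 (difference -1.01). None of these differences passed the adjusted threshold over all probe sets, and they were picked for this pattern, so they were not tested further.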

How the results depend on the processing

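Over the alternatives tried, SH rats had 0 called probe sets except for 1 (Tap2) without SO2 replicate 4, and the difference between strains 0 throughout; SD rats had 0 to 3 with single SD arrays left out (1 without SO2 replicate 1, 1 without air replicate 3, 3 without air replicate 4). Counts of higher and lower probe sets at an unadjusted p under 0.05 were 426 and 414 with array weights and 167 and 401 with arrays centred on the median, where 158 lay above air on every SO2 array. With the lowest 50% left out, 168 were higher and 157 lay above on every array, by fewer probe sets tested; with no filter 446 were higher, and with only the SH arrays 410. With SH SO2 replicates 2 and 3 left out together 174 were higher, and 932 lay above and 983 below air, by fewer samples; heat shock, chemokine and macrophage counts were then 5, 1 and 2. With quality covariates the heat shock count was 6 and the macrophage count 1. With single arrays of either strain left out, the ranges were 180 to 479 higher, 179 to 409 lower, 239 to 786 above and 224 to 524 below on every array, 6 to 14 heat shock genes, 2 to 6 chemokine genes and 2 to 4 macrophage genes. Egfr changed sign to 0.25 (2 arrays left out), 0.071 (quality covariates) and lay between -0.12 and 0.12 with single arrays left out, and Ephx2 between -0.17 and 0.091; both lie near 0. The cause was not tested. Same-numbered samples did not deviate together (correlations of -0.023 to 0.052, and 0 of 4 correlated best with their own number), so they share only a number; with a replicate block 0 were called, 239 were higher and 240 lower, and the heat shock, chemokine and macrophage counts were 12, 4 and 4. With offsets of 1 and 64, quantile scaling and other eBayes settings these counts over all probe sets and of heat shock, chemokine and macrophage genes stayed within 1.5 times, while some counts of 0 to 3 in other lists moved by 1.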

Other observations

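Some cytokine genes were left out by the filter on dim probe sets, and 3 of them are given here, singled out after their values were seen. The groups overlapped for the other dim cytokine and chemokine genes looked at, Il4, Il5, Il10, Il13, Il1rn, Csf2, Ccl2 and Cxcl6. Csf3, the gene of granulocyte colony-stimulating factor, which drives neutrophil production, read 111.7, 116.0, 125.0 and 118.0 in SH SO2 against 18.9, 23.1, 38.8 and 20.4 in SH air. The values of air replicates 1, 2 and 4 lie around the 10th percentile of their arrays (18.95 to 21.05). That of air replicate 3, at 38.8, lies above its own (17.6). The SO2 values lie well above the 10th percentile of theirs (17.0 to 26.8). No fold is given, because most of the air values lie near the 10th percentile. In the limma fit without the filter the adjusted p was 0.437. In SD rats Csf3 read 95.4, 32.6, 24.8 and 70.8 in SO2 against 65.7, 10.9, 104.5 and 31.8 in air, with full overlap. Of all 4759 dim probe sets, 106 lay above air on every SH SO2 array and 43 below, and by p Csf3 ranked 5. Dim list members other than cytokines separated too. Examples are Ptgs2 (44.2 to 89.3 in SH SO2, 20.7 to 37.4 in SH air), Ucp1 (98.2 to 150.1, 11.5 to 53.5) and, lower, Npr3 (14.9 to 33.2, 76.9 to 246.8).

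The brighter of 2 Tnf probe sets read 101.4, 214.0, 322.2 and 145.5 in SH SO2 against 64.2, 125.4, 70 and 67.0 in SH air, where SO2 replicate 1 lay inside the air range (1.05 without the filter, adjusted p = 0.903). In SD rats it read 16.1, 78.8, 75.9 and 54.5 in SO2 against 128.0, 100.8, 110.3 and 149.6 in air (-1.04). The other Tnf probe set was at 0.49 and 0.41. Il6 read 50.2, 116.1, 46.9 and 9.3 in SH SO2 against 12.5, 7.8, 4.1 and 23.2 in SH air, with SO2 replicate 4 inside the air range. Among all 4759 probe sets left out as dim, 195 were higher and 82 lower in SO2 at an unadjusted p under 0.05, and the 10th percentile of signal was itself higher on 3 of 4 SO2 arrays than on any air array; its part in these values was not tested.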
